A study of Xenopus laevis with 24 samples.

Results

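Transcript levels of *Xenopus laevis* embryos treated with AGN193109 were compared with those of vehicle-treated embryos at gastrula stage 10.5. AGN193109 is an inverse agonist selective for retinoic acid receptors (RARs), a ligand that takes the receptors below the activity they have when unbound. The comparison used 15 of the 24 libraries of the series. Of these, 7 libraries came from embryos kept in 1 µM AGN193109, 4 of clutch D and 3 of clutch E. The other 8 came from embryos in the 0.1% ethanol vehicle, 4 of each clutch. Libraries were chosen by their exposure label, and the AGN193109 library 4E was left out because its 10 most abundant records took 79.2% of all FPKM. That share ran from 44.1% to 62.8% in the other 23 libraries. Exposure began at stage 6 to 7 in dishes of 25 embryos in 10 mL, and each library was made from 5 embryos. A further 8 libraries of embryos in 1 µM TTNPB, an RAR-selective agonist, entered the estimate of the spread. Their values stand beside the others as description, since both comparisons share the vehicle libraries.

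RARs sit on DNA as partners of retinoid X receptors (RXRs) and hold their target genes down through corepressors until retinoic acid binds. Agonists exchange the corepressors for coactivators, while inverse agonists strengthen corepressor binding. In the vertebrate gastrula the pathway turns on anterior hox genes and hindbrain genes, and it also turns on *cyp26a1*, whose product degrades retinoic acid. The series is concerned with RAR control of mesodermal genes before gastrulation, so mesodermal genes are described here along with the retinoid targets.

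Levels are FPKM, the authors' estimate of transcript abundance scaled for length and library size, and the files hold 31306 GenBank transcript records. Depth per library is unknown, because FPKM keeps no read count. Median FPKM of the tested records lay between 4.21 and 5.73 in the 23 libraries and was 2.75 in AGN193109 4E. Several records can belong to 1 gene or to its L and S homeologs, and reads shared by such records make the split between them uncertain. Markers of the regions of the gastrula were read by level only, which does not test the labelled stage. Brachyury (*tbxt*, pan-mesodermal) averaged 147 ± 25.5 FPKM with AGN193109 and 130 ± 24.4 FPKM with vehicle (SD, n = 7 and 8). *chrd* (chordin, organizer) averaged 71.8 ± 7.31 and 65.4 ± 7.53 FPKM in these groups, *sox17a* (endoderm) 47.3 ± 10.5 and 36.8 ± 7.12 FPKM, and *sox3* (neural ectoderm) 178 ± 32.8 and 181 ± 35.4 FPKM. Mesoderm, organizer, endoderm and ectoderm markers were thus all present under both exposures, the lowest being *gsc* (goosecoid), a keratin record and *sox2* at 7 to 10 FPKM.

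Among the records that passed the test, the 2 largest falls with AGN193109 were both records of *cyp26a1*. Of 19668 records that averaged 1 FPKM or more, 16 passed limma's test at a Benjamini-Hochberg adjusted p under 0.05, which is 0.0814% of those tested. Of these, 10 rose (0.0508%) and 6 fell (0.0305%), and for each of the 16 clutches D and E gave the same sign. Picking records by a test over both clutches favours equal signs, so this agreement is no separate evidence. By unadjusted p under 0.05, 2068 records were higher and 567 were lower, 13.4% in all. The count of 16 moved with the setting, to 139 when records averaging under 5 FPKM were left out, 129 without AGN193109 1D and 49 with array weights. Differences are given as AGN193109 minus vehicle on the log2(FPKM + 1) scale, which understates changes of low records. The median difference over all tested records was 0.06, with quartiles of -0.07 and 0.19, and 63.8% of records lay above 0. After quantile normalization or upper-quartile scaling that median was 0.01, and the passing records then numbered 5 higher and 9 lower, or 6 higher and 8 lower. The balance of 10 rises to 6 falls therefore rested on the scaling.

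*cyp26a1*, the enzyme that oxidises retinoic acid, was measured by 2 records. In the record annotated as LOC496314 the AGN193109 libraries had a lowest, median and highest level of 1.51, 4.07 and 4.6 FPKM, against 11.4, 13.3 and 22.0 FPKM in the vehicle libraries. The record annotated as retinoic acid converting enzyme had 6.52, 8.95 and 12.9 FPKM with AGN193109, against 18.3, 25.4 and 34.7 FPKM with vehicle. In both records every AGN193109 library lay below every vehicle library. Ranges of the groups did not overlap in 28 of all 19668 tested records (0.142%), of which 3 had AGN193109 below and 25 had it above.

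The LOC496314 record fell by 1.86 ± 0.14 (SE) on the log2 scale (limma, adjusted p = 1.01e-07), with means of 3.34 ± 1.32 FPKM with AGN193109 and 14.1 ± 3.43 FPKM with vehicle (SD, n = 7 and 8). The converting-enzyme record fell by 1.41 ± 0.11 (limma, adjusted p = 1.01e-07), with means of 9.24 ± 1.98 FPKM with AGN193109 and 26 ± 6.04 FPKM with vehicle. TTNPB libraries averaged 127 and 239 FPKM in these records, so AGN193109 and TTNPB lay on opposite sides of the vehicle. Within clutches the LOC496314 record differed by -1.59 ± 0.15 in D and -2.22 ± 0.16 in E, and the other record by -1.54 ± 0.13 in D and -1.28 ± 0.14 in E. The first record thus differed more in E and the other more in D, and neither difference between clutches passed limma's interaction test (adjusted p = 0.778 and 0.884). In whole embryos, fewer cells that express a gene and less RNA per cell cannot be told apart.

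**Figure D1:**
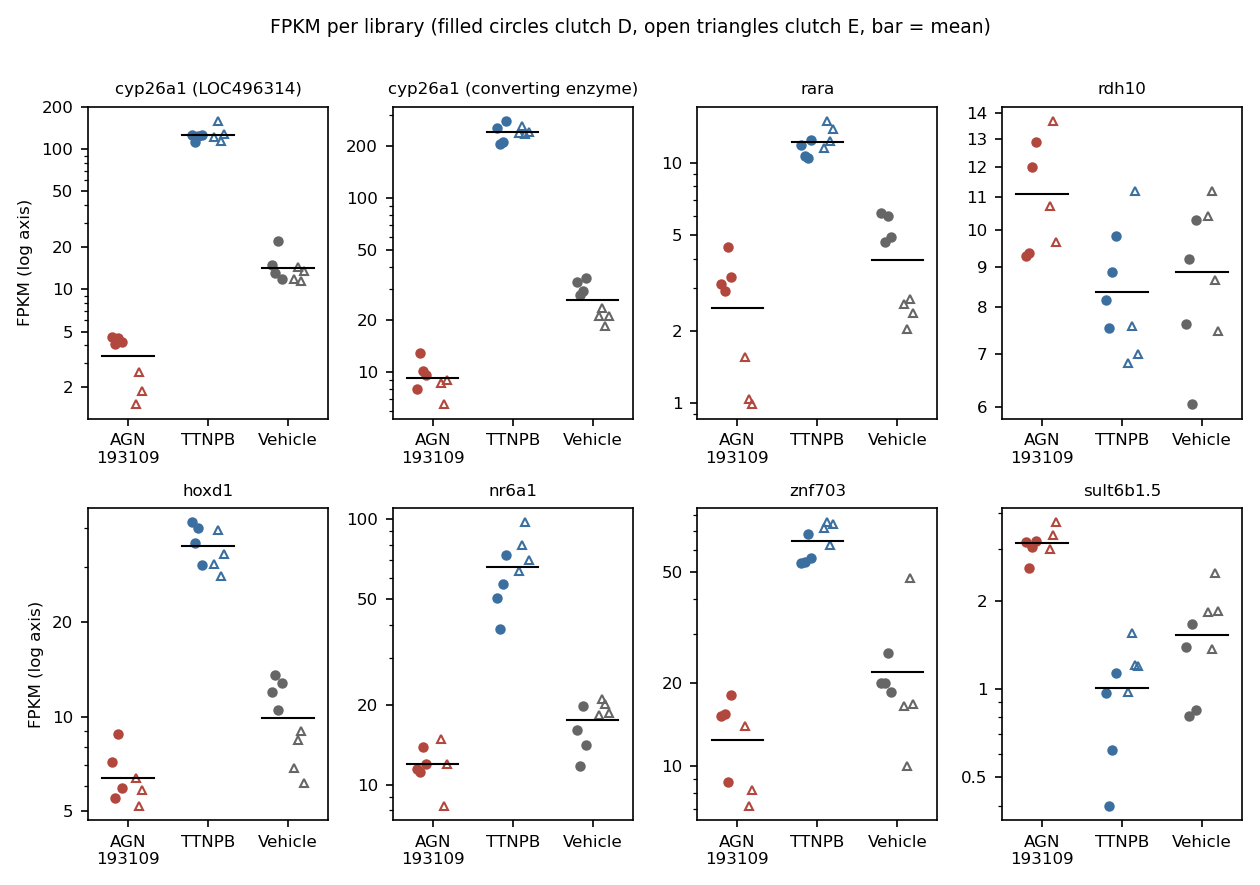
FPKM of 8 records in each library (log axis), with AGN193109, TTNPB and vehicle from left to right, filled circles for clutch D, open triangles for clutch E and a bar at each group's mean. The AGN193109 libraries lie below all vehicle libraries in both *cyp26a1* panels and above all of them for *sult6b1.5*, and they overlap the vehicle libraries in the other panels.

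None of the retinoid receptor records passed limma's test. Of the 3 tested records on the receptor list (*rara*, *rxrb* and *rxrg*) 1 lay above and 2 below 0, with a median of -0.16, and 0 were higher and 1 was lower at an unadjusted p under 0.05. *rara*, the gene of RAR alpha and itself a target of the pathway in many tissues, had a lowest, median and highest level of 0.987, 2.93 and 4.47 FPKM with AGN193109, against 2.04, 3.69 and 6.19 FPKM with vehicle. The groups overlapped, clutch E had lower levels than D under both exposures, and each of the 7 AGN193109 libraries lay below the vehicle mean of its clutch. Here and below, the share of all tested records with all 7 on 1 side was not counted. The *rara* difference was -0.56 ± 0.17 (limma, adjusted p = 0.15), with -0.53 in D and -0.65 in E, and TTNPB libraries averaged 12.3 FPKM. An RXR record whose subtype is not given differed by 0.01 ± 0.15, *rxrb* by 0.16 ± 0.09 and *rxrg* by -0.16 ± 0.19. *rarb* averaged under 1 FPKM in each group and was not tested.

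*rdh10*, which makes retinaldehyde for retinoic acid synthesis, lay above the vehicle without passing the test. It had 9.27, 10.7 and 13.7 FPKM with AGN193109 as lowest, median and highest, against 6.05, 8.92 and 11.2 FPKM with vehicle. The groups overlapped, while none of the 7 AGN193109 libraries lay below the vehicle mean of its clutch. The difference was 0.30 ± 0.12 (limma, adjusted p = 0.278), and TTNPB libraries averaged 8.37 FPKM.

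Coregulators that RARs recruit gave 14 tested records, of which 8 lay above 0 and 6 below. None passed limma's test, while 4 records were higher and 0 were lower at unadjusted p under 0.05. Over all tested records, 2068 of 19668 were higher and 567 lower by that measure. The median difference of the coregulators was 0.13, against 0.06 over all tested records. Less the median of all records it was 0.06, with -0.00 in clutch D alone, 0.02 in clutch E alone and -0.06 with AGN193109 4E included. The smallest p belonged to *tbl1xr1*, a subunit of the nuclear receptor corepressor complex, at 21.6 ± 3.38 FPKM with AGN193109 and 16.1 ± 3.93 FPKM with vehicle (0.43 ± 0.14, limma, adjusted p = 0.162). Next was the coactivator gene *ncoa3*, at 7.42 ± 1.59 FPKM with AGN193109 and 6.37 ± 1.62 FPKM with vehicle (0.23 ± 0.09, adjusted p = 0.271). Relative to vehicle, TTNPB differed by 0.32 for *tbl1xr1* and by 0.02 for *ncoa3*.

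Among anterior hox genes *hoxd1* stood nearest to the threshold. Over the 15 libraries it was the only one of the 8 tested records of hox paralogs 1 to 5 with a mean of at least 1 FPKM. The other 7 passed the filter through their level in TTNPB libraries. *hoxd1*, an early target of retinoic acid in *Xenopus*, had a lowest, median and highest level of 5.19, 5.92 and 8.79 FPKM with AGN193109, against 6.13, 9.76 and 13.6 FPKM with vehicle. Groups overlapped, and each of the 7 AGN193109 libraries lay below the vehicle mean of its clutch. *hoxd1* had the smallest p of its list, which favours such agreement. Its difference was -0.56 ± 0.12 (limma, adjusted p = 0.0618), just outside the threshold. Adjusted p was 0.0123 (-0.63) after quantile normalization, 0.0144 (-0.62) after upper-quartile scaling and 0.0332 when the test was restricted to records averaging 5 FPKM or more. It also passed in 2 of the 15 fits that left out a library, without AGN193109 1D (adjusted p = 0.039) and without Vehicle 4E (adjusted p = 0.0332), and missed in 13. Of the 18 other settings it passed in those 3 and missed in 15, where adjusted p reached 0.449. Clutch D differed by -0.77 ± 0.14 and clutch E by -0.33 ± 0.16, and TTNPB libraries averaged 34.9 FPKM.

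The other anterior hox records were near or below 1 FPKM with vehicle. The 2 records of *hoxa2*, a hindbrain patterning gene, averaged 0.0993 and 0.241 FPKM with AGN193109, against 0.541 and 0.530 FPKM with vehicle (-0.48 ± 0.14, adjusted p = 0.113, and -0.29 ± 0.17, adjusted p = 0.503). *hoxa3*, *hoxb1* and *hoxc5* were under 0.5 FPKM in both groups and differed by -0.06, -0.08 and -0.07. Since these records entered the test through TTNPB, no count or median of the list is given, and none of its records passed limma's test.

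Posterior hox and *cdx* genes gave 4 tested records, of which *hoxb6* averaged under 1 FPKM over the 15 libraries and entered through TTNPB. The other 3 were *cdx4* and 2 records of *cdx1*. No median or count at unadjusted p is read, because 1 of the *cdx1* records passed the filter through the AGN193109 libraries. None passed limma's test. *cdx4*, a caudal homeobox gene of the posterior axis, averaged 19.4 ± 2.91 FPKM with AGN193109, 47.1 FPKM with TTNPB and 20.9 ± 3.18 FPKM with vehicle (-0.11 ± 0.13, limma, adjusted p = 0.779). A *cdx1* record named xCAD2 averaged 13.2 ± 3.29 FPKM with AGN193109 and 10.8 ± 4.21 FPKM with vehicle (0.27 ± 0.10, adjusted p = 0.242). The second *cdx1* record, Xcad 2, had estimates near 0 in most libraries and 30.1 FPKM in AGN193109 1E. Its difference of 1.53 ± 0.52 (adjusted p = 0.191) was thus carried by few libraries. Xcad 2 averaged 7 FPKM with AGN193109, 0.856 FPKM with vehicle and 0.00608 FPKM with TTNPB, so it entered the test through the group where it was high.

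Hindbrain and posterior neural genes lay mostly below the vehicle. The 13 tested records came from 9 genes, so they are not independent of each other. Of them 11 lay below 0 and none passed limma's test, while 0 records were higher and 4 were lower at unadjusted p under 0.05. Their median was -0.20, against 0.06 over all tested records, and it was -0.27 and -0.23 after quantile normalization and upper-quartile scaling. Among all tested records 36.2% lay below 0, and 567 of 19668 were lower at unadjusted p under 0.05.

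*nr6a1*, an orphan nuclear receptor also called GCNF, had 8.32, 12.0 and 14.8 FPKM with AGN193109 as lowest, median and highest, against 11.8, 18.4 and 21.0 FPKM with vehicle (-0.49 ± 0.14, limma, adjusted p = 0.129). *znf703*, a zinc finger corepressor whose zebrafish relatives act in the hindbrain, had 7.19, 14.0 and 18.1 FPKM with AGN193109, against 10.0, 19.2 and 47.4 FPKM with vehicle in 1 record (-0.72 ± 0.23, adjusted p = 0.159). In both genes the groups overlapped and each of the 7 AGN193109 libraries lay below the vehicle mean of its clutch. Both were named for the smallest p of their list, a choice that favours such agreement. *meis3*, a TALE homeobox gene of the hindbrain, differed by -0.34 ± 0.12 in 1 record (8.15 ± 2.41 FPKM with AGN193109, 10.5 ± 1.59 FPKM with vehicle, limma, adjusted p = 0.210) and by 0.12 ± 0.10 in the other. *gbx2*, which marks the anterior hindbrain, differed by -0.28 ± 0.15 and -0.17 ± 0.21 in its 2 records. For *nr6a1*, *znf703*, *meis3* and *gbx2* the TTNPB means were 66.4, 64.6, 38.9 and 15.9 FPKM in the first record named, each above the highest vehicle library.

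**Figure D2:**
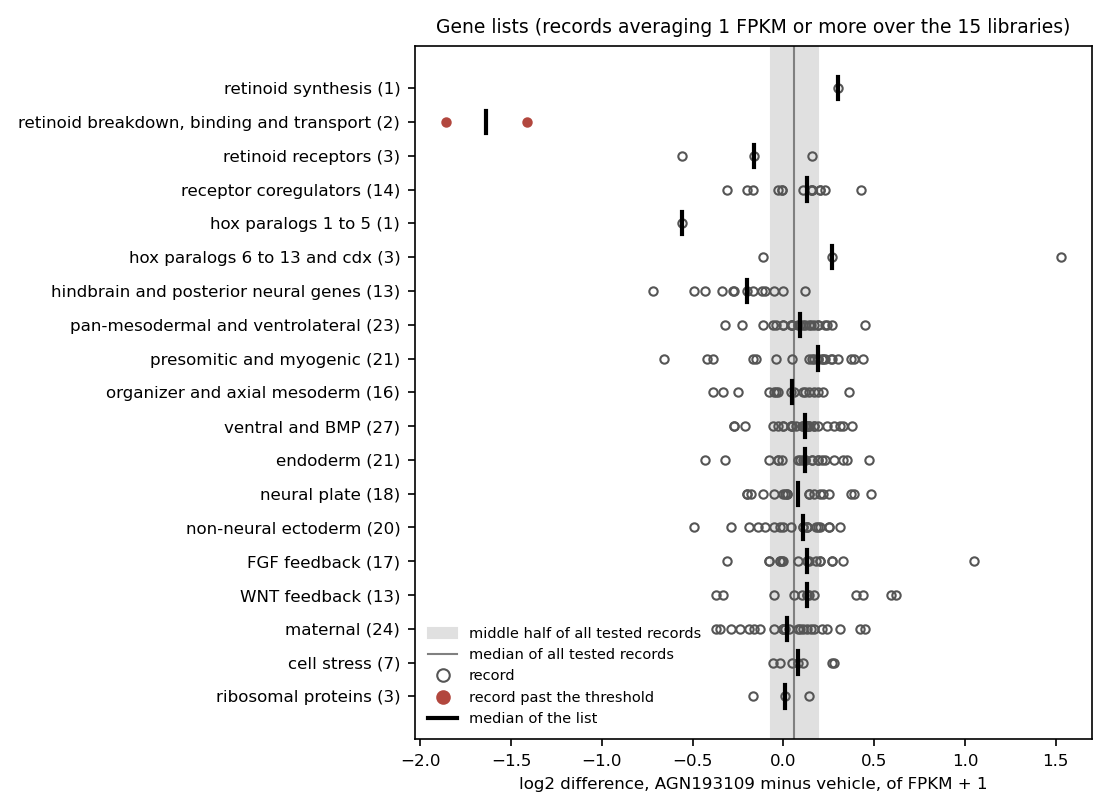
Each row is a gene list with its number of tested records averaging 1 FPKM or more over the 15 libraries, and each circle is 1 such record's log2 difference of FPKM + 1, AGN193109 minus vehicle, filled where it passed the threshold. The black bar is the list's median, and the grey band is the middle 50% of all tested records. The 2 *cyp26a1* records stand at the far left. The bars of hox paralogs 1 to 5 (*hoxd1* alone, -0.56), hindbrain genes (-0.20) and retinoid receptors (-0.16) also lie left of the band. Of the 13 hindbrain records 2 lie above 0. The bar of posterior hox and *cdx* genes includes the *cdx1* record Xcad 2 and is not read.

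No mesodermal record passed limma's test, and a count of 0 in lists of this size is near the background share of 0.0814%. The pan-mesodermal and ventrolateral list had 23 records averaging 1 FPKM or more over the 15 libraries, 18 above and 5 below 0, with a median of 0.09, while 4 were higher and 0 lower by unadjusted p under 0.05. The 4 higher records include 1 described as WNT11-related protein, whose vehicle mean of 0.977 FPKM was under the filter of 1 FPKM. It entered through the groups where it was high, and its description does not settle which WNT11 gene it is. Over all tested records 63.8% lay above 0, the median was 0.06 and 13.4% had an unadjusted p under 0.05. *tbxt*, the T-box gene of early mesoderm, had 118, 156 and 179 FPKM with AGN193109 as lowest, median and highest, against 103, 128 and 163 FPKM with vehicle. These medians mix clutches of unlike level, and the AGN193109 group has fewer libraries of clutch E. Within clutches *tbxt* averaged 167 FPKM with AGN193109 and 152 FPKM with vehicle in D, and 121 and 108 FPKM in E. Its groups overlapped, and the difference was 0.15 ± 0.05 (limma, adjusted p = 0.195), while the second *tbxt* record, Xbra3, differed by 0.12 ± 0.09. *vegt*, the T-box gene that starts mesoderm and endoderm formation, averaged 114 ± 16.1 FPKM with AGN193109 and 104 ± 12.8 FPKM with vehicle (0.11 ± 0.10, adjusted p = 0.693). *fgf20*, an FGF ligand gene, averaged under 1 FPKM over the 15 libraries and entered the test through TTNPB (mean 1.76 FPKM), at 0.677 ± 0.174 FPKM with AGN193109 and 1.05 ± 0.227 FPKM with vehicle (-0.29 ± 0.11, adjusted p = 0.221).

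Presomitic and myogenic genes gave 21 tested records, 15 above and 6 below 0, with a median of 0.19 that was 0.26 in clutch D alone and -0.00 in clutch E alone. None passed limma's test, while 4 records were higher and 2 were lower at unadjusted p under 0.05. Of all 19668 tested records 63.8% lay above 0, and 2068 were higher and 567 lower by that measure. The median of all tested records was 0.06, with 0.04 in clutch D alone and 0.09 in clutch E alone. *dll1*, a Notch ligand of the presomitic mesoderm and neural plate, had 23.9, 28.7 and 33.0 FPKM with AGN193109 as lowest, median and highest, against 15.2, 19.8 and 27.0 FPKM with vehicle. The groups overlapped, and the difference was 0.44 ± 0.10 (limma, adjusted p = 0.0618), with 0 of 7 AGN193109 libraries below the vehicle mean of their clutch. *dll1* was named for the smallest p of its list, a choice that favours such agreement. *myf6*, a myogenic bHLH gene, had 9.03, 17 and 34.6 FPKM with AGN193109, against 11.4, 33.6 and 53.6 FPKM with vehicle, a difference of -0.66 ± 0.16 (adjusted p = 0.0787). Its vehicle mean was 50.3 FPKM in clutch D and 14.9 FPKM in E, so these group medians mix unlike clutches. Within clutches it differed by -0.94 ± 0.20 in D and -0.36 ± 0.22 in E. The left-out library AGN193109 4E went the other way, at 72.8 FPKM. *dll1* and *myf6* both passed when the test was restricted to records averaging 5 FPKM or more (adjusted p = 0.0369 and 0.0465) and when AGN193109 1D was left out (adjusted p = 0.039 and 0.0484). *dll1* passed without Vehicle 4D and with array weights too. Each missed in most fits. *dll1* missed in 13 of the 15 that left out a library and in 16 of 18 other settings, and *myf6* in 14 of 15 and 17 of 18. TTNPB differed from vehicle by -0.12 for *dll1* and by -0.62 for *myf6*, the latter in the same direction as AGN193109.

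Other regulators of this list did not come near the threshold. *msgn1* (mespo), which drives presomitic fate, averaged 18.2 ± 5.20 FPKM with AGN193109 and 15.1 ± 2.97 FPKM with vehicle, with differences of 0.47 in clutch D and -0.07 in clutch E (0.23 ± 0.19 in both, limma, adjusted p = 0.650). *tbx6* averaged 23 ± 2.12 FPKM with AGN193109 and 19.2 ± 2.98 FPKM with vehicle (0.27 ± 0.11, adjusted p = 0.266). The 3 *mespa* records, which mark somite boundaries, differed by -0.04 ± 0.17, 0.19 ± 0.17 and 0.17 ± 0.19. The 2 records of *myod1*, the myogenic determination gene, differed by 0.26 ± 0.14 and -0.17 ± 0.18.

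Organizer and axial genes (16 tested records, median 0.05) had 9 records above 0 and 7 below, with 0 past limma's threshold and 0 at an unadjusted p under 0.05. The organizer gene *gsc* averaged 7.62 ± 2.68 FPKM with AGN193109 and 9.13 ± 2.47 FPKM with vehicle, and it differed by 0.21 in clutch D and -0.76 in clutch E (-0.25 ± 0.24 in both, limma, adjusted p = 0.708). *chrd*, whose product binds BMPs, differed by 0.11 ± 0.08 (adjusted p = 0.590). *sia1*, a WNT-activated organizer gene, averaged 1.94 ± 0.840 FPKM with AGN193109 and 2.98 ± 1.34 FPKM with vehicle (-0.39 ± 0.19, adjusted p = 0.384). *hesx1*, an anterior repressor, had 1.36, 3.01 and 4.59 FPKM with AGN193109 as lowest, median and highest, against 1.27, 1.89 and 2.57 FPKM with vehicle (0.36 ± 0.20, adjusted p = 0.448). TTNPB libraries averaged 0.491 FPKM for *hesx1*, so the AGN193109 mean lay on the other side of the vehicle.

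Ventral and BMP genes (27 tested, median 0.12), endoderm genes (21 tested, median 0.12), neural plate genes (18 averaging 1 FPKM or more over the 15 libraries, median 0.08) and non-neural ectoderm genes (20 tested, median 0.11) likewise had 0 records past limma's threshold. At an unadjusted p under 0.05 they had 1, 4, 5 and 0 higher records and 0, 0, 2 and 1 lower records in that order. Over all tested records the counts were 2068 higher and 567 lower of 19668. In the endoderm list *foxa1*, a pioneer factor, averaged 14.6 ± 3.31 FPKM with AGN193109 and 10.3 ± 2.93 FPKM with vehicle (0.47 ± 0.16, adjusted p = 0.191), and *sox17a* differed by 0.33 ± 0.12 (adjusted p = 0.204). The related gene *sox17b* differed by -0.03 ± 0.08.

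In the neural plate list the homeobox genes *irx1* and *irx2* led. *irx2* had 14.5, 15.6 and 19.3 FPKM with AGN193109 as lowest, median and highest, against 11, 12.6 and 13.9 FPKM with vehicle, so the groups did not overlap (0.37 ± 0.10, limma, adjusted p = 0.0954). *irx1* averaged 43.6 ± 12.0 FPKM with AGN193109 and 32.7 ± 11.6 FPKM with vehicle (0.48 ± 0.12, adjusted p = 0.0787, and 0.0477 among records averaging 5 FPKM or more, the only one of 33 alternatives in which it passed). Relative to vehicle, TTNPB differed by 0.30 for *irx1* and by 0.49 for *irx2*, in the same direction as AGN193109. *irx3*, of the same family, lay below the vehicle at 14.9 ± 2.34 FPKM with AGN193109 and 17.2 ± 2.69 FPKM with vehicle (-0.20 ± 0.10, adjusted p = 0.364). In the non-neural ectoderm list *foxi4.2*, a forkhead gene, averaged 13.2 ± 3.12 FPKM with AGN193109 and 19 ± 6.86 FPKM with vehicle (-0.49 ± 0.14, adjusted p = 0.13), and *foxi2* differed by -0.19 ± 0.09 in its leading record. In the ventral list *bmper*, a BMP-binding protein gene, averaged 1.27 ± 0.279 FPKM with AGN193109 and 0.866 ± 0.378 FPKM with vehicle (0.31 ± 0.14, adjusted p = 0.351), and *ventx1.2*, a BMP-induced homeobox gene, differed by 0.19 ± 0.10 (adjusted p = 0.438). The vehicle mean of *bmper* was under the filter of 1 FPKM, so it entered the test through the groups where it was high. *bmper* is the 1 higher record counted for the ventral list, and that count is not read.

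Feedback genes of 2 other pathways were also read. The WNT list (13 tested, median 0.13) had 0 records past limma's threshold, with 3 records higher and 2 lower at unadjusted p under 0.05. Over all tested records the median was 0.06, and 2068 of 19668 were higher and 567 lower by that measure. Within clutches the WNT median was 0.12 in D and 0.09 in E, against 0.04 and 0.09 over all tested records. In the fit of clutch E alone it was 0.01. *axin2*, a WNT target and inhibitor, had 22.4, 28.9 and 34.9 FPKM with AGN193109 as lowest, median and highest, against 18.8, 21.6 and 27.4 FPKM with vehicle (0.40 ± 0.11, adjusted p = 0.0885, with a pass in 1 of 33 alternatives, array weights), and *sp5*, another WNT target, differed by 0.62 ± 0.21 (adjusted p = 0.186). Relative to vehicle, TTNPB differed by 0.37 for *axin2* and by -0.05 for *sp5*. The FGF list (17 tested, median 0.13) also had 0 past limma's threshold, with 3 records higher and 1 lower at unadjusted p under 0.05. It was led by the receptors *fgfr4* (0.20 ± 0.06, adjusted p = 0.133) and *fgfr2* (0.27 ± 0.09, adjusted p = 0.201). For these receptors TTNPB differed from vehicle by 0.24 and 0.26, in the same direction as AGN193109.

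Lists that stand for RNA carried over from the egg or for the state of the cells had medians close to that of all tested records (0.06) with both clutches together. Maternal genes (24 tested) had a median of 0.02, cell stress genes (7 tested) 0.08 and ribosomal protein genes (3 tested) 0.01. Within clutches the cell stress median was -0.01 in D and 0.25 in E, against 0.04 and 0.09 over all tested records. None of the records on these lists passed limma's test. At an unadjusted p under 0.05 the maternal list had 3 higher and 1 lower record, and the stress list and ribosomal list had 0. All 19668 tested records had 2068 higher and 567 lower. In the maternal list *ccnb2*, a mitotic cyclin gene, differed by 0.24 ± 0.09. A record described as WNT11-related protein, counted there as *wnt11b*, differed by 0.45 ± 0.18. It averaged 1.64 FPKM with AGN193109 and 0.977 FPKM with vehicle, and its description does not settle which WNT11 gene it is. The vehicle mean was under the filter of 1 FPKM, so this record entered the test through the groups where it was high. It is among the 3 higher records of the maternal list. The stress genes *atf4* and *hspa5* differed by 0.27 ± 0.16 and 0.28 ± 0.17 in their leading records, and the ribosomal protein genes *rps2* and *rpl4* by -0.17 ± 0.17 and 0.14 ± 0.16.

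Apart from *cyp26a1*, 5 records past the threshold had a gene name, and each was higher with AGN193109. *sult6b1.5*, a cytosolic sulfotransferase gene, had the largest rise. Its lowest, median and highest levels were 2.59, 3.17 and 3.71 FPKM with AGN193109, against 0.810, 1.53 and 2.48 FPKM with vehicle, without overlap. The rise was 0.76 ± 0.12 (limma, adjusted p = 0.0119), with 0.90 in clutch D and 0.60 in clutch E. TTNPB libraries averaged 1.00 FPKM, on the other side of the vehicle mean of 1.53 FPKM.

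*nudt4*, which encodes a phosphohydrolase of inositol pyrophosphates, had 31.3, 32.4 and 42.6 FPKM with AGN193109 as lowest, median and highest, against 16.7, 22.9 and 31.4 FPKM with vehicle, and rose by 0.54 ± 0.10 (limma, adjusted p = 0.0266). The groups overlapped by a narrow margin. *gltp*, a glycolipid transfer protein gene, had 9.95, 14.8 and 17.6 FPKM with AGN193109, against 5.48, 9.51 and 13.8 FPKM with vehicle, and rose by 0.50 ± 0.09 (adjusted p = 0.0333). The zinc finger gene *znf106* averaged 71.0 ± 7.15 FPKM with AGN193109 and 59.2 ± 5.07 FPKM with vehicle (0.27 ± 0.05, adjusted p = 0.0443), and *fbxo11*, a ubiquitin ligase subunit gene, averaged 37.3 ± 7.85 FPKM with AGN193109 and 29.0 ± 4.49 FPKM with vehicle (0.37 ± 0.07, adjusted p = 0.0461). Under quantile normalization *nudt4* (adjusted p = 0.0536), *fbxo11* (adjusted p = 0.0536) and *znf106* (adjusted p = 0.0648) missed the threshold, and *znf106* and *fbxo11* missed it under upper-quartile scaling too. Of the 15 fits that left out a single library, *nudt4* passed in 8, *gltp* in 7, *znf106* in 3 and *fbxo11* in 4. *sult6b1.5* and both *cyp26a1* records passed in each of the 15. *sult6b1.5* missed the threshold with the 15 libraries alone, without the clutch term, with clutch means, in clutch D alone, in clutch E alone and at an adjusted p under 0.01.

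**Figure D3:**
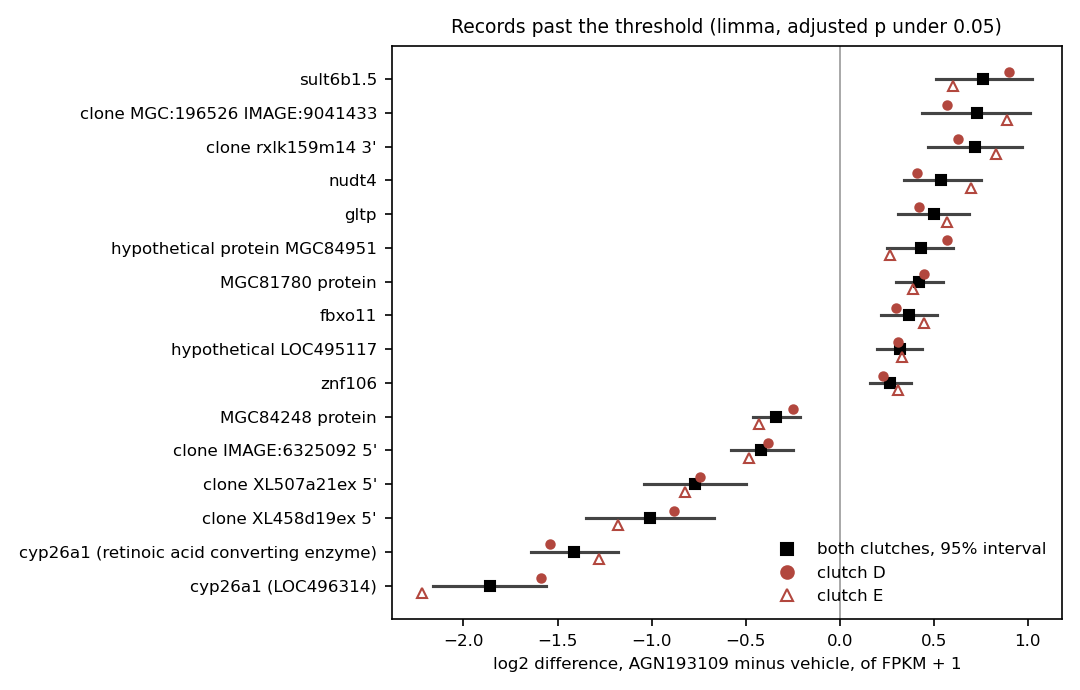
The 16 records past the threshold with their log2 difference of FPKM + 1, AGN193109 minus vehicle, and its 95% interval (squares), and with the difference in clutch D (circles) and clutch E (triangles) alone. The 2 *cyp26a1* records lie farthest from 0 at -1.86 and -1.41. In each record both clutches lie on the same side of 0, which selection by a test over both clutches favours.

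The other 9 passing records carry only clone or project designations, and their differences ran from -1.01 to 0.73. Of these, 3 were singled out after their values were seen. Clone XL458d19ex had 1.57, 3.42 and 4.62 FPKM with AGN193109 as lowest, median and highest, against 4.40, 7.53 and 9.27 FPKM with vehicle, and fell by 1.01 ± 0.16 (limma, adjusted p = 0.0119). Its TTNPB mean was 13.9 FPKM, so that it lay below the vehicle with AGN193109 and above it with TTNPB, as did *cyp26a1*. Clone XL507a21ex, an abundant record, had 351, 434 and 758 FPKM with AGN193109, against 569, 825 and 994 FPKM with vehicle, and fell by 0.77 ± 0.13 (adjusted p = 0.0120). MGC81780 had 20.4, 22.3 and 25.2 FPKM with AGN193109, against 13.5, 16.4 and 18.2 FPKM with vehicle, and rose by 0.42 ± 0.06 without overlap (adjusted p = 0.00411). For these 2 records the TTNPB means, 630 and 21.1 FPKM, lay on the same side of the vehicle as AGN193109.

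The number of passing records was larger when low records were left out. Restricted to records averaging 5 FPKM or more, limma's test passed 139 of 10117 (1.37%), of which 109 were higher and 30 lower. The median difference of all records tested in this setting was 0.07. It was not refitted after quantile normalization or upper-quartile scaling. Whether the balance of rises to falls here rests on the scaling was thus not tested. Clutches D and E gave the same sign for each of the 139, which selection by a test over both clutches favours. Genes named from this setting were chosen after their values were seen. On the lower side, next to *cyp26a1*, *myf6* and *hoxd1*, stood *dapl1* (12.0 ± 5.67 FPKM with AGN193109, 30.4 ± 12.8 FPKM with vehicle, difference -1.29, adjusted p = 0.0378), a death-associated protein-like gene. Mxi1, a MAX partner that opposes MYC, averaged 17.5 FPKM with AGN193109 and 23.6 FPKM with vehicle (-0.46, adjusted p = 0.0465). Relative to vehicle, TTNPB differed by -0.92 for *dapl1* and by 1.34 for Mxi1. On the higher side *stt3a*, a catalytic subunit of the oligosaccharyltransferase, averaged 31.5 FPKM with AGN193109 and 20.9 FPKM with vehicle (0.57, adjusted p = 0.0419), and *cpne3*, a calcium-dependent membrane-binding protein gene, averaged 21.3 FPKM with AGN193109 and 14.1 FPKM with vehicle (0.56, adjusted p = 0.0378).

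Before any further scaling, more records lay above 0 than below it at each level of vehicle mean, with 53.8% above 0 from 100 FPKM on. The bands were not read after quantile normalization or upper-quartile scaling, under which the median of all tested records was 0.01. With records banded by their vehicle mean, the median difference was 0.09 under 2 FPKM, 0.06 from 2 to 5 FPKM, 0.06 from 5 to 20 FPKM, 0.06 from 20 to 100 FPKM and 0.01 from 100 FPKM on. The vehicle mean is 1 side of the difference, which favours rises in low bands. Records with a vehicle mean under 1 FPKM also entered only through AGN193109 or TTNPB libraries. Differences between the bands are therefore not read. Each of the 7 AGN193109 libraries had a median difference from the vehicle mean of its clutch, and these ran from 0.01 to 0.11. By that measure TTNPB libraries ran from -0.08 to 0.08. Vehicle libraries, which enter that mean themselves, ran from -0.09 to 0.08, so the ranges of the groups overlapped.

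The response did not differ detectably between the clutches. In limma's interaction test 0 of 19668 records (0%) passed, the smallest adjusted p was 0.415, and 1227 records had an unadjusted p under 0.05. The median difference was 0.04 in clutch D and 0.09 in clutch E. The difference E minus D was 2.59 ± 0.80 for the sparse *cdx1* record Xcad 2 (adjusted p = 0.756) and -0.98 ± 0.43 for *gsc* (adjusted p = 0.789). Clutch E had 3 AGN193109 libraries, and the 2 clutches are the independent sibships behind all 15.

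**Figure D4:**
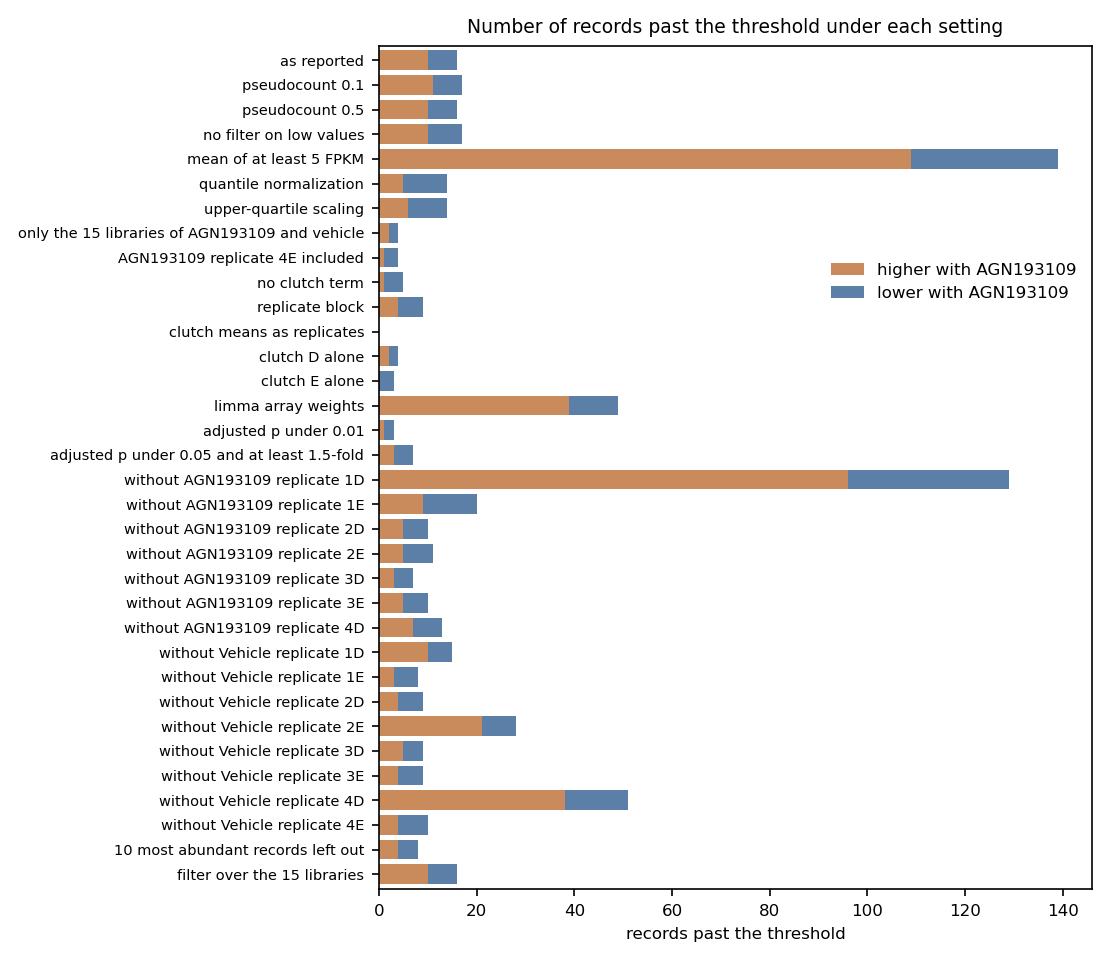
Number of records past the threshold under each setting, split into records higher and lower with AGN193109. The reported setting gives 16, testing only records averaging 5 FPKM or more gives 139, leaving out AGN193109 1D gives 129, and using the 15 libraries alone gives 4.

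Single libraries moved the count. It was 129 without AGN193109 1D, 51 without Vehicle 4D and 28 without Vehicle 2E, and it was lowest at 7 without AGN193109 3D. With AGN193109 4E included, 4 records passed, 1 higher and 3 lower. The fit on the 15 libraries alone, without TTNPB in the estimate of the spread, passed 4 records, 2 higher and 2 lower, of which 3 were among the 16. Both *cyp26a1* records passed in each of these fits.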

How the data were processed

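Transcript levels were measured in pools of 5 *Xenopus laevis* embryos at stage 10.5. Per the labels' protocols, RNA was amplified with NuGEN Ovation V2 and sequenced on an ABI SOLiD instrument. The authors deposited FPKM values, scaled for transcript length and library size, of 31306 GenBank records, made with TopHat, Bowtie and Cufflinks per the submitters' processing notes. Versions and the sequences aligned to are not given in the sources used here. Read depth cannot be had from FPKM, and no counting interval is given. The labels state 5 replicates per clutch, and 4 per exposure and clutch were given here.

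Exposure and clutch came from the labels. A gene symbol was given to 260 records from their GenBank description, and NCBI gene numbers in the descriptions of 2547 records gave a symbol for 2224 through RefSeq (Xenopus_laevis_v10.1). The remaining records were called by their description.

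Values were transformed to log2(FPKM + 1), and the 19668 records averaging 1 FPKM or more over 23 libraries (all but AGN193109 4E) were tested in R 4.3.3 with limma 3.58.1, whose empirical Bayes variance followed the mean level, with exposure and clutch as terms. Benjamini-Hochberg adjustment ran over the whole set of tested records, and the threshold was 0.05. The clutch difference was the interaction of exposure and clutch. The code was tested on simulated data. P-values measure the spread between aliquots, which may share a dish, and the independent sibships are the 2 clutches. Correlations of log2 values between the 23 libraries ran from 0.888 to 0.953, and no library pair was identical. No pairing by replicate number was seen: deviations from the group means correlated by -0.115 to 0.0377 over 7 pairs, 0 of them over 0.1. Whether equal numbers share a dish cannot be read from such correlations.

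Named genes were every named record past the threshold, the 2 records of each gene list with the smallest p, and a fixed set. Of the fixed set 5 genes had no record that matched by name (*rarg*, *wnt8a*, *myf5*, *dhrs3* and *aldh1a2*, not analysed here), and 5 further genes are not reported here. Members, lists and tests were chosen with earlier results of these data known. The lists were retinoid synthesis, retinoid breakdown and transport, receptors, coregulators, hox paralogs 1 to 5, posterior hox and *cdx*, hindbrain, mesodermal, presomitic, organizer, ventral and BMP, endoderm, neural plate, non-neural ectoderm, FGF, WNT, maternal, cell stress and ribosomal protein genes. Retinoid synthesis had 1 tested record (*rdh10*) and breakdown and transport 2 (both *cyp26a1*).

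Alternatives were other pseudocounts (0.1, 0.5), no filter or an average of 5 FPKM or more, upper-quartile or quantile scaling, the 15 libraries alone, AGN193109 4E included, no clutch term, a replicate block, clutch means, each clutch alone, array weights, an adjusted p of 0.01, a fold of at least 1.5 as well, and leaving out single libraries. Leaving out the 10 most abundant records and filtering over the 15 libraries were added after seeing the data.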

Additional observations from a re-analysis of the deposited data

Results flagged for a closer look

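In 20 of 198 groups of libraries examined (99 values in 2 groups each), 1 library stood apart from the rest of its group by Dixon's criterion, 8 times in AGN193109 and 12 times in vehicle libraries. For normally distributed values chance gives about 1 such group in 20. The criterion was applied to values without a log transform, and each library that stood apart was the highest of its group. The chance rate for such values was not tested, and they are given without an explanation.

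Among AGN193109 libraries, replicate 1D stood apart with 758 FPKM for clone XL507a21ex (351 to 508 FPKM in the others) and 0.770 FPKM for *hoxb1* (0 to 0.259 FPKM in the others). Replicate 2D had 13.2 FPKM for *gsc* (others 5.76 to 8.76 FPKM) and 60.3 FPKM for Nup153 (others 46.6 to 51.9 FPKM). Replicate 3D had 9.40 FPKM for the RXR record (others 3.77 to 5.17 FPKM), 76.7 FPKM for a procollagen-proline record (others 56.8 to 64.8 FPKM) and 210 FPKM for ABP-EF, a poly(A)-binding protein (others 169 to 186 FPKM). Replicate 1E had 30.1 FPKM for the *cdx1* record Xcad 2 (others at most 12.8 FPKM).

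Among vehicle libraries, replicate 3D stood apart with 22.0 FPKM for *cyp26a1* in the LOC496314 record (others 11.4 to 15 FPKM), 7.99 FPKM for the RXR record (others 4.08 to 5.63 FPKM) and 5.33 FPKM for *gbx2* (others 2.31 to 3.65 FPKM). Replicate 1D had 2.88 FPKM for the second *gbx2* record and 4.25 FPKM for a record similar to integral membrane protein 2A, against at most 1.77 and 3.06 FPKM in the others. Replicate 2D had 1.68 FPKM for *hoxb1*, the highest of its group, and 13.7 FPKM for *rxrb* (others 8.86 to 11 FPKM). In replicate 3E, LOC495117 had 39.9 FPKM (others 33.5 to 36.3 FPKM) and *znf703* 47.4 FPKM (others 10.0 to 25.6 FPKM). Replicate 4E had 6.84 FPKM for Xcad 2 (others at most 0.00187 FPKM) and 20.4 FPKM for *atf4* (others 11.3 to 14.8 FPKM), and replicate 2E had 1.82 FPKM for the *hesx1* record XANF-2 (others at most 0.5 FPKM).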

How the results depend on the processing

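The count of 16 passing records kept within 1.5 times of itself with a pseudocount of 0.1 (17) or 0.5 (16), with no filter (17), under quantile normalization or upper-quartile scaling (14 each) and with the filter taken over the 15 libraries (16). It was 139 with an average of 5 FPKM or more, where 10117 records were tested, and 49 with array weights. It was 4 with the 15 libraries alone, 4 with AGN193109 4E included, 5 without the clutch term, 0 with each clutch averaged to 1 value (limma, 1931 at an unadjusted p under 0.05), 4 in clutch D alone, 3 in clutch E alone, 3 at an adjusted p under 0.01, 7 with an added fold of 1.5 and 8 with the 10 most abundant records left out. Fewer libraries or a stricter rule enter some of these by construction, and for the rest the cause was not tested. Leaving out 1 library at a time gave 7 to 129 records, and 7 of the 16 calls were kept in all 15 such fits. The count was 8 without Vehicle 1E, 9 without Vehicle 2D, 3D or 3E, and 10 without Vehicle 4E, AGN193109 2D or AGN193109 3E.

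With the replicate number as a block, 9 records passed, 7 of them among the 16, and the interaction still gave 0. No pairing by number was seen, and 1 of 7 AGN193109 libraries correlated best with its own number. Both *cyp26a1* records passed under 17 of 18 settings other than leaving out a library and missed only with clutch means. The clutch interaction gave 0 records except with no filter (4), and leaving out 1 library gave 0 to 1 (1 without AGN193109 1E). No value changed sign past a threshold. Unknown depth limits what can be said of records near 1 FPKM.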

Other observations

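AGN193109 4E, which was left out of the reported comparison, had 1.54 FPKM for *cyp26a1* in the LOC496314 record and 3.11 FPKM in the converting-enzyme record, against 1.51 to 4.6 FPKM and 6.52 to 12.9 FPKM in the 7 other AGN193109 libraries. *sult6b1.5* was at 4.07 FPKM in it (2.59 to 3.71 FPKM in the others), *nudt4* at 27.4 FPKM (31.3 to 42.6 FPKM) and *znf106* at 27.9 FPKM (62.8 to 78.6 FPKM). Its median difference from the vehicle mean of clutch E was -0.66 on the log2 scale.

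Other records annotated to retinoid handling were read as well. A record of RPE65, the retinoid isomerase of the eye, had 3.19 to 4.93 FPKM with AGN193109 and 1.98 to 3.35 FPKM with vehicle (0.41 ± 0.12, limma, adjusted p = 0.139), and a retinol dehydrogenase 9 record differed by -0.16 ± 0.22. The retinoic acid-inducible records RAIG2, RAIG3 and RAIG4a differed by 0.09 ± 0.13, 0.28 ± 0.17 and -0.37 ± 0.49 (adjusted p = 0.835, 0.509 and 0.8). RAIG4a differed by 0.65 in clutch D and -1.53 in clutch E.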
